A study of Arabidopsis thaliana with 9 samples.

Results

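Wild-type callus of Arabidopsis thaliana (thale cress) was compared with wild-type rosette leaf across gene families and pathways other than photosynthesis, auxin, hypoxia and the cell cycle. The comparison took 6 of the 9 libraries of the series, 3 of each tissue (the labels call them biological replicates), and every gene listed in the deposited table of either tissue. These were 18617 of the 18861 genes in any table, with 14780 listed in both tissues (79.4%), 1923 in callus alone and 1914 in leaf alone. A table lists a gene whose group mean is above 1 RPKM (reads per kilobase of gene per M mapped reads), so absence from 1 table bounds the mean in that tissue at 1 RPKM. Within this comparison 4236 loci were sorted into 86 lists by name and annotated function, and 3003 of them were in either table.

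Both groups are Col-0 plants without an added allele. The leaf libraries come from rosettes raised for 1 week on Murashige and Skoog medium in continuous light and for 2 more weeks on soil in long days. The callus libraries come from cotyledons of seeds sown on Gamborg B5 medium that held dextrose, 2,4-dichlorophenoxyacetic acid (2.2 µM, an auxin) and kinetin (0.46 µM, a cytokinin). The cotyledons were trimmed after 7 days in the light, passed to fresh plates in darkness, and used as calli 6 to 8 weeks old. The remaining 3 libraries, callus with the emf2 mutation, served to estimate the spread. They also entered the principal components and some of the alternative scalings. Tissue, medium, sugar, hormones, light and age therefore differ together and cannot be told apart, and in bulk RNA fewer cells of a type and less RNA per cell cannot be told apart either.

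Callus grown on auxin and cytokinin is known to arise along a root-like path of development and to lack the green chloroplasts of a leaf. A leaf cell houses much of its metabolism in the chloroplast, including the making of carotenoids, fatty acids, starch and part of its amino acids, and nearly all of these enzymes are encoded in the nucleus. A proliferating cell is known to devote much of its transcription to ribosomes. The lists below follow these roles: protein synthesis first, then metabolism, defence compounds, immune receptors and hormones, the wall and its transporters, and transcription factors.

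The labels were checked against cell type markers. The summed level of 4 leaf mesophyll markers was 39930 to 61468 RPKM in the leaf libraries and 6.94 to 250 in the callus libraries, with callus replicate 1 the highest. The 3 guard cell and 2 phloem markers were listed in leaf alone, the 3 xylem markers summed to 30.9 to 66.6 RPKM in leaf and 1.81 to 15.5 in callus, and 6 of 7 markers of callus or lateral root founder cells were listed in callus against 1 in leaf. The reads recovered from the values came to 39.5 to 43.9 M reads per leaf library and 41.5 to 53.2 M per callus library, and the median listed gene held 591 to 1342 reads. The first principal component parted leaf from callus of either genotype. It was taken over all 9 libraries, emf2 callus included, and held 85.2% of the variance of the 14476 genes in all 3 tables.

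A gene was called when the adjusted p of limma's test on log2(RPKM + 1) was under 0.05. Of 14780 genes listed in both tissues 33.6% rose and 31.8% fell, and 14.9% rose and 22.2% fell at least 2-fold. The split depends on scaling: 4969 genes rose and 4703 fell on the deposited scale, against 9085 and 2554 when libraries were set to equal totals, where the median change of all genes moved from 0.06 to 0.83. List medians are therefore given relative to the median of all genes, on the log2 scale. A gene listed in 1 tissue was tested against the 1 RPKM bound, which 58.2% of the genes listed in callus alone and 75.1% of those in leaf alone passed. Each of these groups was 10.3% of the genes in either table. The listing itself requires a group mean above 1 RPKM in these same libraries, so the direction of the bound test was largely fixed. A pass says only that the level stood clear of the bound relative to the spread.

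Of the 80 lists with at least 5 genes in both tables, 2 had a median more than 1 above that of all genes, 17 had a median more than 1 below it, and 61 lay within 1. The highest relative median was 1.15, for ribosome biogenesis, and the lowest was −5.21, for photorespiration. Other low medians were those of plastid ribosomal proteins (−4.60), carotenoid synthesis (−3.27) and plasma membrane aquaporins (−3.21).

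**Figure D1:**
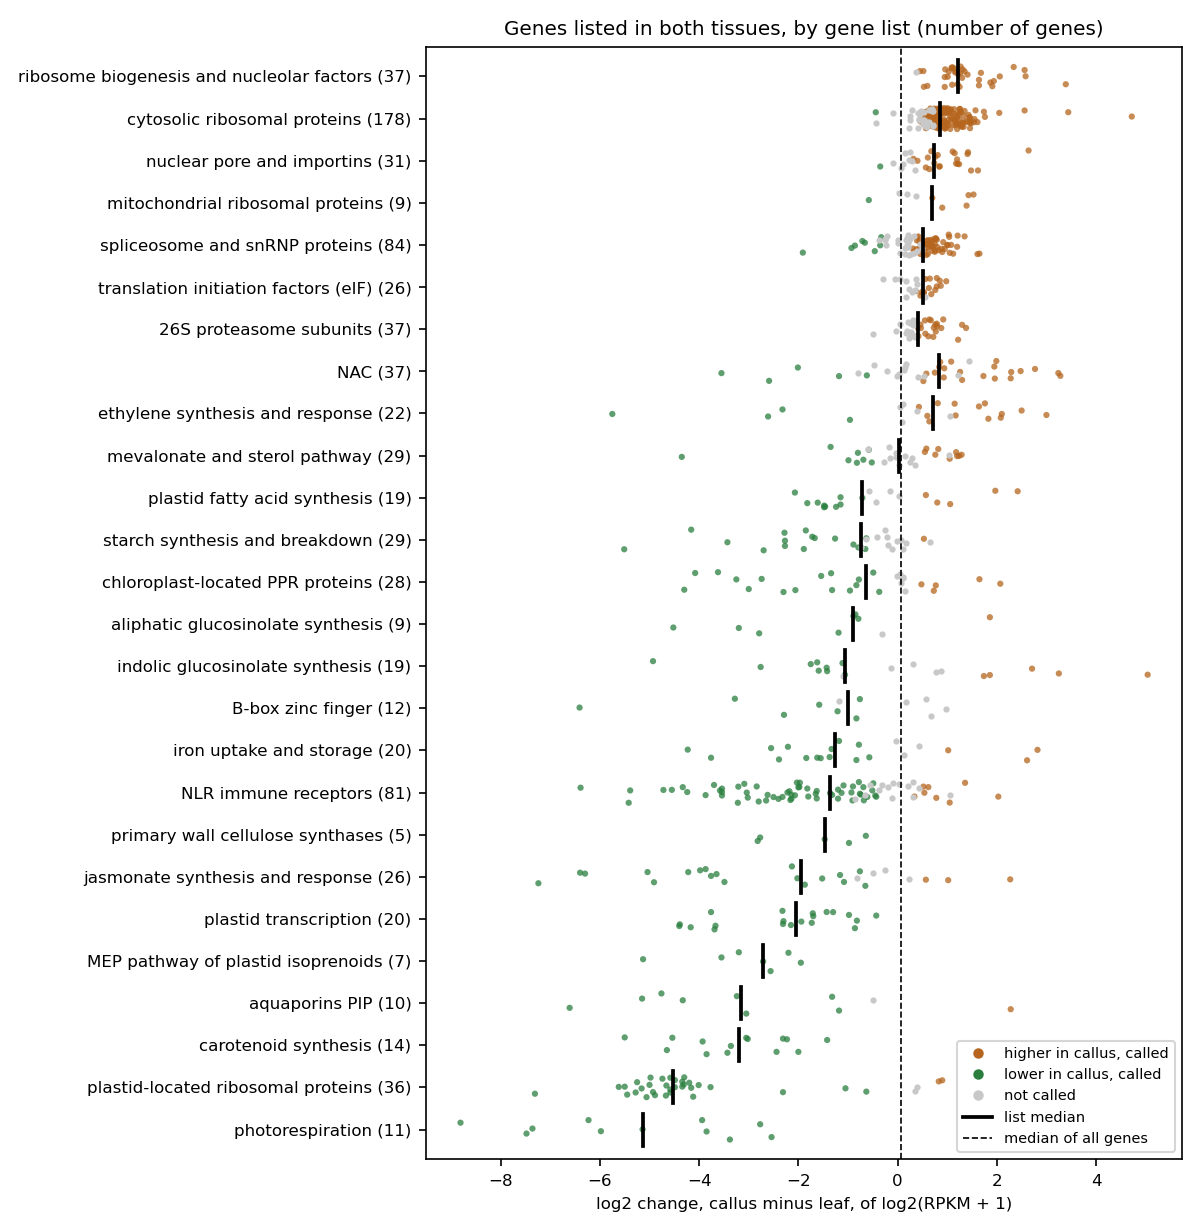
Log2 change (callus minus leaf, on the log2(RPKM + 1) scale) of every gene listed in both tissues for 26 lists, 1 point per gene, with the number of genes in brackets, a black bar at the list median and a dashed line at the median of all genes (0.06). Ribosome biogenesis and cytosolic ribosomal proteins form tight clouds to the right of the line, and plastid ribosomal proteins have a median of −4.53, with 2 members that rose.

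Most ribosomal protein genes of the cytosol and nearly all genes of ribosome biogenesis were higher in callus, and most ribosomal protein genes of the plastid were lower. Of 178 cytosolic ribosomal protein genes listed in both tissues, 148 rose (83.1%, against 33.6% of all genes), 1 fell and 29 were not called. Their relative median was 0.79, or 0.52 without leaf replicate 3 and 1.38 under quantile normalization. The median level of these genes was 69.7, 81 and 43.8 RPKM in the leaf libraries and 105, 117 and 121 in the callus libraries. Every callus library was above every leaf library, and leaf replicate 3 was the lowest. Of 37 genes for ribosome biogenesis, which process and modify ribosomal RNA in the nucleolus, 36 rose (97.3%) and 0 fell, 29 of them at least 2-fold. Their median level was 7.18, 10.2 and 5.67 RPKM in leaf and 18.2, 20.6 and 20.8 in callus.

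Of 36 genes for plastid ribosomal proteins, 32 fell (88.9%, against 31.8% of all genes) and 2 rose, with a relative median of −4.60. Their median level was 298, 269 and 208 RPKM in leaf and 9.56, 10.9 and 8.35 in callus. All 20 listed genes of plastid transcription, the sigma factors and the proteins bound to the plastid-encoded RNA polymerase, fell (100%, relative median −2.11), and the 3 listed in leaf alone passed against the bound. The 9 genes annotated as mitochondrial ribosomal proteins leaned the same way as the cytosolic ones: 5 rose and 1 fell (9 and 0 under library-total scaling), with medians of 7.56, 7.41 and 7.18 RPKM in leaf and 13.9, 14.7 and 15.6 in callus.

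Promoter sequence is shown for the pair with the largest change in each of the 3 ribosome lists, among genes whose 200 bases before the annotated start are free of another gene. The sequences are from the RefSeq TAIR10.1 genome, written 5′ to 3′ toward the gene, and capitals mark 2 motifs found on either strand: the telo box AAACCCTA, and site II in the forms TGGGCC and TGGGCT. FIB2 (AT4G25630, chr4:13073890-13074089, plus strand) and CBF5 (AT3G57150, chr3:21156076-21156275, minus strand) serve ribosome biogenesis. AT5G39850 (chr5:15949710-15949909, plus strand) and AT2G40205 (chr2:16792623-16792822, minus strand) encode cytosolic ribosomal proteins of the S4 and L41 families, and PSRP3/1 (AT1G68590, chr1:25758412-25758611, minus strand) and EMB3137 (AT5G14320, chr5:4618982-4619181, minus strand) encode plastid ribosomal proteins.
FIB2: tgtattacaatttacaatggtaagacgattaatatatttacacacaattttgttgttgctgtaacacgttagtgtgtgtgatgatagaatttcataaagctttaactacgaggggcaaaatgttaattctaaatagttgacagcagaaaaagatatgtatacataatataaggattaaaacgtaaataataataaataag
CBF5: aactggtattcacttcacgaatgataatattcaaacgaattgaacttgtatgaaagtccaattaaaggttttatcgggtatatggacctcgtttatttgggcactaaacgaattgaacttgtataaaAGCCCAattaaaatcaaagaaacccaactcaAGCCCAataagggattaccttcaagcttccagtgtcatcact
AT5G39850: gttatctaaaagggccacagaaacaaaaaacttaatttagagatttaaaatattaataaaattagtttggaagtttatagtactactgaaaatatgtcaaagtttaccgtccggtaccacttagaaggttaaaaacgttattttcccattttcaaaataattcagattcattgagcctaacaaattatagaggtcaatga
AT2G40205: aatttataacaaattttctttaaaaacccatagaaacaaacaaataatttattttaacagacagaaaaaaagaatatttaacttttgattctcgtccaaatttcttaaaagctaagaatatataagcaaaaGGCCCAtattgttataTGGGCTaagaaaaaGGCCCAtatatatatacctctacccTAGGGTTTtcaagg
PSRP3/1: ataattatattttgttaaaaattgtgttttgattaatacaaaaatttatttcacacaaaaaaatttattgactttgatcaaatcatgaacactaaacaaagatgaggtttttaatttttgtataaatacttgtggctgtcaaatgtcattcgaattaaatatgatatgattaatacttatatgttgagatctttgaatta
EMB3137: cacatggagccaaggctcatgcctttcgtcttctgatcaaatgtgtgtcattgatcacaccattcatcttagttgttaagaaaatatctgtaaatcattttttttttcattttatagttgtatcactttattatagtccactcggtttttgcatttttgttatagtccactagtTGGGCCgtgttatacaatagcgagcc

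A site II match was in the 200-base window of 123 of 181 cytosolic ribosomal protein genes (68%), 23 of 40 ribosome biogenesis genes (57.5%) and 10 of 36 plastid ribosomal protein genes (27.8%), against 3991 of 18542 protein-coding genes in the tables (21.5%). A telo box match was in 32 (17.7%), 5 (12.5%) and 2 (5.56%) of them, against 541 genes (2.92%). AT2G40205 holds 3 site II matches and 1 telo box match, CBF5 holds 2 site II matches and EMB3137 holds 1, while FIB2, AT5G39850 and PSRP3/1 hold neither motif in this window. A match describes letters, not a bound site. A G-box (CACGTG) and an I-box (GATAAG) were searched as well and were in 3.31% and 12.2% of cytosolic ribosomal protein windows, 8.33% and 19.4% of plastid ones and 1202 and 1866 of all 18542.

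FIB2, a fibrillarin that methylates ribosomal RNA, was at 4.2, 10.4 and 2.39 RPKM in leaf and 52.9, 65.4 and 63.3 in callus, a log2 change of 3.39 (SE 0.38, limma adjusted p = 0.000104). CBF5, the pseudouridine synthase of ribosomal RNA, was at 23.8, 43.3 and 11.2 RPKM in leaf and 122, 164 and 135 in callus, a log2 change of 2.56 (SE 0.40). In both genes every callus library lay above every leaf library, and leaf replicate 2 was the highest leaf library. The core box C/D protein gene AT5G27120, of the NOP56 family, was at 6.69, 12.1 and 5.28 RPKM in leaf and 42.2, 57.1 and 52.8 in callus, with the same order of leaf libraries. Its relative AT3G12860 was listed in callus alone, at 6.42, 7.18 and 7.12 RPKM.

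Single members of the cytosolic ribosomal protein families moved further than the list. AT5G39850 (S4 family) was at 2.67, 5.41 and 3.47 RPKM in leaf and 47.6, 44.4 and 59.3 in callus, a log2 change of 3.44 (SE 0.22). AT2G40205 (L41 family) was at 21, 20.4 and 17.1 RPKM in leaf and 103, 121 and 138 in callus, a log2 change of 2.56 (SE 0.15). Of its bases 202 overlap another gene. AT1G23410, a fusion of ubiquitin and protein S27a, went from 2.22, 2.75 and 0.152 RPKM to 41.4, 75.3 and 77.6, although 885 of its bases overlap another gene. The acidic stalk protein gene AT3G28500 was listed in callus alone, at 27.2, 35.5 and 48.4 RPKM. Ribosomal proteins come from families of near-identical copies, so reads may be split between copies and the level of a single copy is less certain than that of the list.

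PSRP3/1, a protein specific to the plastid ribosome, was at 446, 366 and 249 RPKM in leaf and 2.78, 0.575 and 0.712 in callus, a log2 change of −7.31 (SE 0.39, limma adjusted p = 1.41e-05). EMB3137, of the S13 family, was at 390, 348 and 281 RPKM in leaf and 6.78, 6.38 and 4.62 in callus, and emb2394, of the L6 family, was at 444, 398 and 286 against 7.13, 7.54 and 6.91. Leaf and callus did not overlap in any of them, and leaf replicate 3 was the lowest leaf library each time. SIG6 and SIG1, sigma factors that direct the plastid polymerase to its promoters, fell with log2 changes of −4.40 (SE 0.24) and −4.39 (SE 0.37). PTAC16, a protein of the transcriptionally active plastid chromosome, was listed in leaf alone at 623, 586 and 440 RPKM, and SIG5, the stress-responsive sigma factor, at 165, 233 and 21.4. The call of SIG5 was lost without leaf replicate 1.

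Pentatricopeptide repeat proteins bind organelle RNA and help to edit, splice and translate it. Of 170 listed in both tissues 86 rose and 36 fell, 59 more were listed in callus alone (28 passed) and 8 in leaf alone. Among the 73 of the 170 with a mean of at least 5 RPKM in either tissue 32 rose and 31 fell, and under library-total scaling 132 of the 170 rose and 21 fell. Of 28 annotated to the chloroplast 5 rose and 16 fell (relative median −0.70), while of 12 annotated to the mitochondrion 10 rose and 0 fell (relative median 0.66). The chloroplast split turned to 13 higher and 11 lower under library-total scaling, and the difference between the organelles was not tested. PPR336, of the mitochondrial ribosome, went from 9.44, 13.5 and 7.63 RPKM to 45.1, 59.1 and 48.7, a log2 change of 2.24 (SE 0.20). The chloroplast-annotated AT1G19720 went from 54.2, 62.1 and 45.8 RPKM to 2.3, 1.57 and 1.51, a log2 change of −4.30 (SE 0.16), and MRL1, which stabilises the messenger of the large Rubisco subunit, was listed in leaf alone at 44.3, 38 and 18.8 RPKM.

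**Figure D2:**
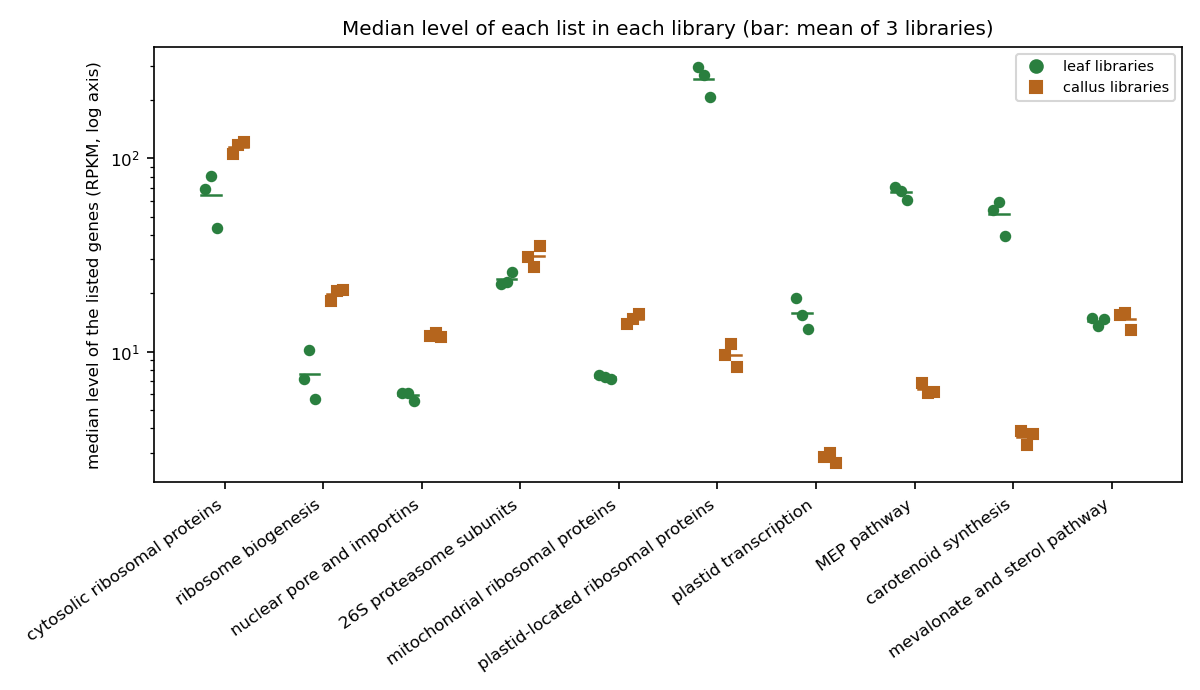
Median level (RPKM, log axis) over the genes of a list that are in both tables, 1 point per library, with a bar at the mean of the 3 libraries. Cytosolic, mitochondrial and nuclear pore lists lie higher in all callus libraries, plastid lists and the plastid isoprenoid pathway lie lower, and the mevalonate and sterol pathway overlaps between tissues.

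Most lists of other nuclear and cytosolic machinery leaned the same way as the cytosolic ribosome, by smaller steps. Of 31 genes of the nuclear pore and its importins 22 rose and 1 fell (relative median 0.67), of 84 spliceosome genes 51 rose and 8 fell (0.44), of 26 eIF translation initiation factors 15 rose and 0 fell (0.45, or 0.26 without leaf replicate 3), and of 37 proteasome subunits 21 rose and 0 fell (0.35). Under library-total scaling 78 spliceosome genes, 26 initiation factors and 36 proteasome subunits rose. Aminoacyl-tRNA synthetases, which load tRNA with amino acids, leaned the other way, with 13 of 42 rising and 19 falling (relative median −0.31), or 22 and 12 under library-total scaling. IMPA-6, an importin that carries proteins into the nucleus, went from 2.08, 1.96 and 0.959 RPKM in leaf to 13.6, 18.1 and 14.5 in callus (log2 change 2.64, SE 0.19). RPT3, an ATPase of the proteasome base, went from 39.4, 41.2 and 66.1 RPKM to 123, 94.6 and 144. Of 31 autophagy genes 5 rose, 3 fell and 23 were not called, against 19 and 0 under library-total scaling, and 3 rose without leaf replicate 1 or 2 or callus replicate 1 or 3.

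Isoprenoids can be made by a plastid route, the MEP pathway, or by the cytosolic mevalonate route that feeds sterols. All 7 MEP pathway genes fell (relative median −2.78), and of 29 genes of the mevalonate and sterol route 9 rose, 8 fell and 12 were not called. The relative median of the latter was −0.04, between −0.05 and 0.13 over all alternatives, and under library-total scaling 18 rose and 1 fell. DXS1 (AT4G15560), the entry enzyme of the MEP pathway, was at 236, 229 and 170 RPKM in leaf and 6.86, 4.22 and 4.3 in callus, a log2 change of −5.13 (SE 0.24, limma adjusted p = 9.58e-07). The later enzymes fell by less: the log2 change was −3.55 for HDS, −3.20 for DXR, −2.71 for ISPF, −2.56 for HDR, −2.20 for ISPD and −1.95 for CDPMEK. Leaf and callus libraries did not overlap for any of the 7.

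In the cytosolic route members moved in both directions. HMG2, an isoform of HMG-CoA reductase, went from 3.27, 2.87 and 2.81 RPKM to 8.73, 9.66 and 6.97 (log2 change 1.24, SE 0.13), and CYP51G1, the sterol demethylase, from 47.6, 43.6 and 34.3 to 103, 117 and 90.8 (1.29, SE 0.16). The squalene epoxidase SQE3 went from 144, 209 and 39.5 RPKM to 3.96, 3.31 and 5.85, a log2 change of −4.35 (SE 0.55) in which leaf replicate 3 lay far below the other leaf libraries.

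All 14 carotenoid genes listed in both tissues fell (relative median −3.27), and NCED4 and LUT2 were listed in leaf alone and passed. PSY (AT5G17230), phytoene synthase, which commits carbon to the pathway, was at 297, 266 and 139 RPKM in leaf and 5.46, 2.82 and 3.86 in callus, a log2 change of −5.50 (SE 0.31, limma adjusted p = 2.26e-06). ZEP, zeaxanthin epoxidase, went from 211, 283 and 107 RPKM to 6.83, 5.72 and 6.84 (log2 change −4.65, SE 0.32), and CCD1, a carotenoid-cleaving enzyme of the cytosol, from 157, 178 and 132 to 14.2, 6.54 and 10. In plastid fatty acid synthesis 10 of 19 genes fell and 5 rose (relative median −0.77), or 6 and 7 under library-total scaling. CAC3, a subunit of the plastid acetyl-CoA carboxylase, went from 103, 90.7 and 80.9 RPKM to 21, 24.9 and 17.4 (log2 change −2.07, SE 0.17).

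The acyl carriers of fatty acid synthesis held members of opposite direction. ACP4 was at 539, 410 and 251 RPKM in leaf and was not listed in callus, while ACP1 was at 4.59, 4.1 and 3.36 RPKM in leaf and 31.3, 19.7 and 27.7 in callus, a log2 change of 2.42 (SE 0.18). The thioesterase gene FaTA rose as well, from 1.48, 1.87 and 1.54 RPKM to 9.07, 10.5 and 8.31. Of 29 starch genes 16 fell and 1 rose (relative median −0.80), and 5 of 5 listed in leaf alone passed. Without leaf replicate 3, 3 rose, and under library-total scaling 6 rose and 11 fell. ADG1, the small subunit of the enzyme that makes ADP-glucose, went from 214, 219 and 186 RPKM to 13.3, 13 and 6.62 (log2 change −4.16, SE 0.25). GBSS1, the granule-bound starch synthase, was listed in leaf alone at 384, 534 and 29.7 RPKM, so leaf replicate 3 stood far below the other leaf libraries, and BMY3 showed the same order at 479, 402 and 50.1 RPKM.

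Photorespiration recycles the product of Rubisco's reaction with oxygen through chloroplast, peroxisome and mitochondrion. All 11 genes listed in both tissues fell and 8 of 8 listed in leaf alone passed, so 19 of its 20 genes were lower in callus. SHM1, the mitochondrial serine hydroxymethyltransferase, went from 1463, 1455 and 998 RPKM to 2.8, 1.46 and 1.51, a log2 change of −8.81 (SE 0.22, limma adjusted p = 2.77e-07). The exception was GOX3, a glycolate oxidase listed in callus alone at 22, 19.7 and 34.2 RPKM, while its homologue GOX1 was listed in leaf alone at 1089, 1379 and 754. Of 28 genes of the TCA cycle 9 rose and 3 fell (relative median 0.04), and of 32 of respiratory complex I 2 rose and 11 fell (−0.32). These splits rest on the scale, since under library-total scaling 26 TCA cycle genes rose and 0 fell, and 28 complex I genes rose and 0 fell.

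Glycolysis rose in part, with opposite changes among the enzymes that phosphorylate fructose 6-phosphate. Of 28 glycolytic genes outside the plastid 12 rose and 5 fell, against 21 and 2 under library-total scaling. Their relative median was 0.38, or 0.23 without callus replicate 3 (9 rose) and 0.77 under quantile normalization. AT1G12000, annotated as a phosphofructokinase family protein, went from 9.56, 11.3 and 9.53 RPKM to 61.5, 55.9 and 87.8 (log2 change 2.62, SE 0.21), and PFK3 from 2.67, 4.48 and 8.56 to 15.7, 19.9 and 21.4. PFK1 went the other way, from 46.9, 42.7 and 28.8 RPKM to 8.28, 5.77 and 9.43 (log2 change −2.19, SE 0.23). FBA5, a cytosolic aldolase, was listed in leaf alone at 72.2, 113 and 177 RPKM.

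In nitrogen assimilation isoforms moved in opposite directions. Glutamine synthetase joins ammonium to glutamate, with GS2 in the plastid and GLN1;3 in the cytosol. GS2 (AT5G35630) was at 1255, 1260 and 867 RPKM in leaf and 4.02, 6.59 and 7.1 in callus, a log2 change of −7.36 (SE 0.25, limma adjusted p = 3.61e-07). GLN1;3 (AT3G17820) was at 6.04, 6.52 and 11.4 RPKM in leaf and 203, 204 and 242 in callus, a log2 change of 4.64 (SE 0.24, limma adjusted p = 1.47e-06). The mean level of GLN1;3 in callus was 216 RPKM and that of GS2 in leaf was 1127 RPKM.

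Asparagine synthetases also moved in opposite directions, where ASN3 rose from 3.67, 4.35 and 2.33 RPKM to 11.4, 21.9 and 13.9 (log2 change 1.89, SE 0.26) and ASN2 fell from 154, 92.8 and 57.2 to 10.9, 12.4 and 16.8 (−2.74, SE 0.33). The catabolic glutamate dehydrogenase GDH2 went from 12.2, 12.3 and 21.9 RPKM to 167, 68.5 and 298 (3.25, SE 0.54). Among carriers NRT1.8, a nitrate transporter of the root vasculature, was listed in callus alone at 135, 126 and 174 RPKM, and the ferredoxin-dependent glutamate synthase GLU1 in leaf alone at 524, 604 and 331. Over the whole list of nitrate uptake and assimilation 6 of 21 genes rose and 10 fell, or 8 and 6 under library-total scaling. Its relative median of −0.67 shrank to −0.04 under quantile normalization.

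Iron genes fell in most cases, with opposite isoforms in nicotianamine synthase, whose product chelates iron for transport. Of 20 listed in both tissues 14 fell and 3 rose (relative median −1.32, or 8 and 6 under library-total scaling), and 10 of 12 listed in leaf alone passed. The ferric reductases FRO6, of the plasma membrane, and FRO7, of the chloroplast, were listed in leaf alone at 196, 211 and 185 RPKM and at 152, 134 and 124. OPT3, a phloem iron carrier, went from 149, 201 and 170 RPKM to 14.1, 8.61 and 13.3 (log2 change −3.76, SE 0.23). NAS4 went from 31.1, 40.1 and 29.9 RPKM to 2.25, 0.255 and 0.516, while NAS2 was listed in callus alone at 13, 20.9 and 17.3. NRAMP3, which exports iron from the vacuole, rose from 3.62, 5.1 and 5.75 RPKM to 47.3, 25.6 and 51.4 (log2 change 2.82, SE 0.26).

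Glucosinolates are the sulfur-rich defence compounds of the cabbage family, made from methionine (aliphatic) or tryptophan (indolic). Of 23 aliphatic genes in either table, 14 were listed in leaf alone (60.9%, against 10.3% of all genes) and all 14 passed against the bound. Of the 9 in both, 7 fell and 1 rose, or 3 and 2 under library-total scaling. Of 20 indolic genes 0 were listed in leaf alone. Of the 19 in both 9 fell (47.4%, against 31.8% of all genes) and 5 rose (26.3%, against 33.6%), or 4 and 8 under library-total scaling. Among genes in both tables the relative median was −0.96 for the aliphatic and −1.12 for the indolic branch. The latter was −0.65 without callus replicate 2 and −0.30 under quantile normalization. The difference between the branches was not tested.

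The aliphatic branch was low from its regulators to its side chains. MYB28 (AT5G61420), its main transcription factor, was at 34.2, 25.5 and 35.1 RPKM in leaf and was not listed in callus, where its mean was thus at most 1 RPKM. The leaf level stood 4.01 above that bound on the log2 scale (SE 0.19, limma adjusted p = 0.000182). CYP83A1 of the core pathway was listed in leaf alone at 151, 260 and 191 RPKM, and IPMI2, which lengthens the methionine chain, at 40.3, 91.5 and 89.7. Of the members still listed in callus, IMD1 of chain lengthening went from 38.2, 75.6 and 75.2 RPKM to 1.69, 1.48 and 1.83 (log2 change −4.52, SE 0.25), and the sulfotransferases SOT17 and SOT18 fell with log2 changes of −3.20 (SE 0.14) and −2.79 (SE 0.25). FMO GS-OX4, which oxidises the side chain, was the exception, from 6.24, 9.83 and 3.42 RPKM to 22.7, 24 and 26.9 (log2 change 1.86, SE 0.31).

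The indolic branch held rises and falls at several steps, with more falls than rises on the deposited scale (9 against 5, all at least 2-fold). All 5 rises are named below, but only some of the 9 falls. CYP79B2, ASA1, TSA1 and IGMT1 were singled out after their values were seen. CYP79B3 and CYP79B2 both convert tryptophan to its oxime. CYP79B3 went from 96.6, 119 and 71.1 RPKM to 3.07, 1.9 and 1.53 (log2 change −4.93, SE 0.31). CYP79B2 was at 45.6, 47.1 and 60.6 RPKM in leaf and 27.1, 10.6 and 41.2 in callus (log2 change −1.11, limma adjusted p = 0.0707), and it passed without callus replicate 3 (−1.52), so its side of the threshold depends on the libraries and the fit. Upstream of them TSA1 of tryptophan synthase rose by a log2 change of 1.74, and ASA1, anthranilate synthase, went from 24.6, 28.2 and 30.7 RPKM to 84.7, 115 and 113 (log2 change 1.86, SE 0.23). IGMT5 (AT1G76790), an indole glucosinolate methyltransferase, went from 0.294, 0.758 and 2.26 RPKM to 48.3, 72.9 and 70.8, a log2 change of 5.04 (SE 0.34), and the ring hydroxylase CYP81F3 from 2.93, 2.58 and 3.6 to 21.6, 80.5 and 29.1 (3.25, SE 0.43). CYP81F1 also rose, but 1820 of its bases overlap another gene, and IGMT1 fell (log2 change −1.75) with libraries that overlap between tissues, a call lost without leaf replicate 1 or 3 or callus replicate 1 or 2.

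**Figure D3:**
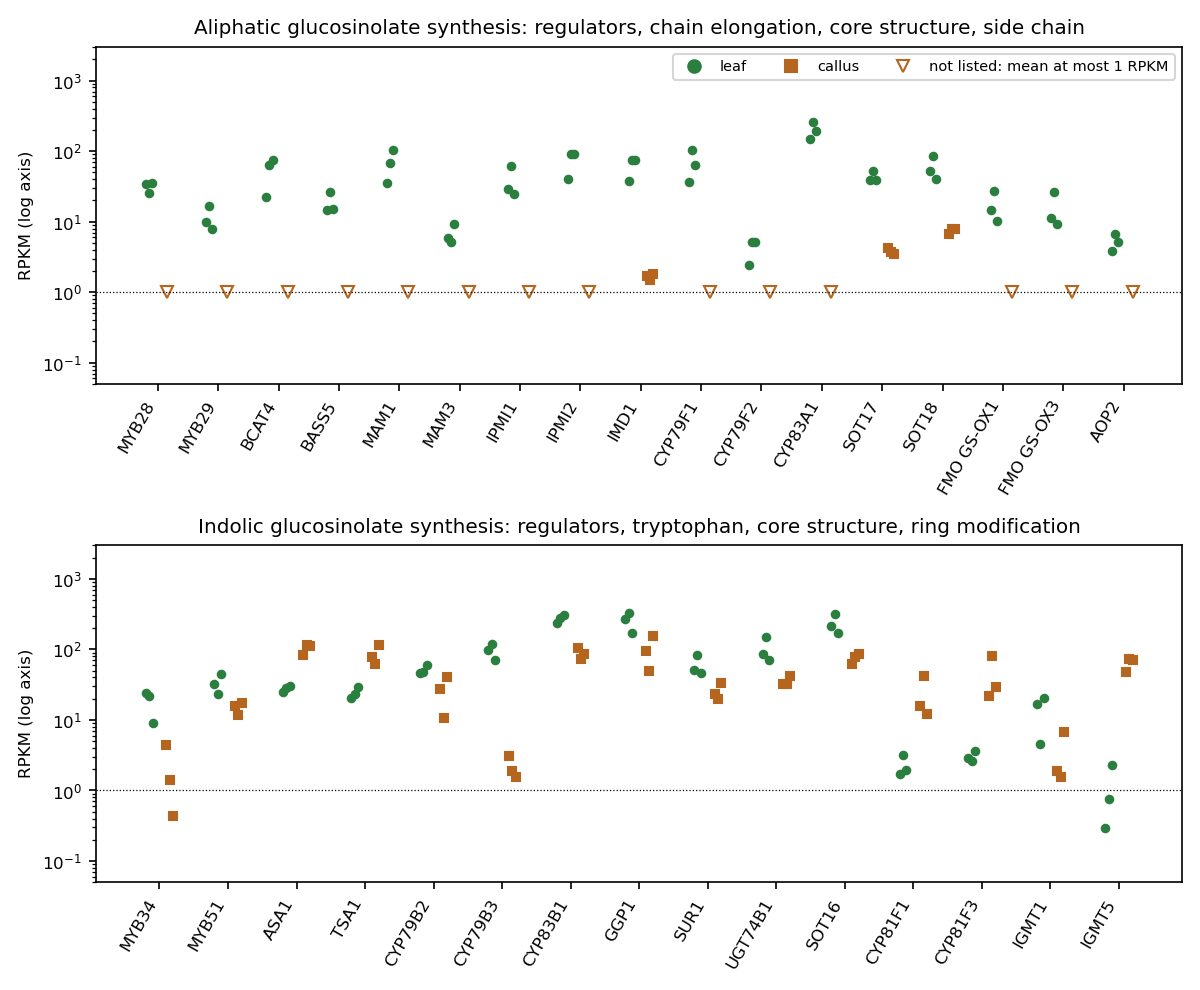
Levels (RPKM, log axis) of glucosinolate genes in the 3 leaf libraries (circles) and 3 callus libraries (squares), in the order of the pathway; open triangles at 1 RPKM (dotted line) mark genes not listed in callus. The genes shown are a selection. In the upper panel 14 of the 17 aliphatic genes shown carry a triangle, while in the whole list 14 of 23 were in leaf alone (60.9%). From the 9 aliphatic genes in both tables only IMD1, SOT17 and SOT18, which fell, are shown. FMO GS-OX4, which rose, is not shown. In the lower panel every indolic gene shown has callus values, with IGMT5, CYP81F3 and CYP81F1 above leaf.

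NLR receptors, cysteine-rich receptor-like kinases and wall-associated kinases were mostly lower in callus or listed in leaf alone. Lectin receptor kinases and receptor-like proteins had smaller median shifts. NLR proteins are the intracellular receptors that recognise pathogen effectors. Of 81 in both tables, 59 fell (72.8%, against 31.8% of all genes) and 8 rose, with a relative median of −1.43, and 31 more were listed in leaf alone (27 passed) against 14 in callus alone (10 passed). The median level of these 81 genes was 14.1, 14.2 and 14.1 RPKM in leaf and 4.81, 4.08 and 4.36 in callus, so the libraries of the tissues did not overlap. Under library-total scaling 16 rose and 41 fell, with a relative median of −1.37. Without leaf replicate 2, 5 rose. Of 12 cysteine-rich receptor-like kinases, receptors of the cell surface, 7 fell and 0 rose (4 and 2 under library-total scaling), and 21 of the 35 in either table were in leaf alone (60%, 15 passed). Of 15 wall-associated kinases, which bind pectin, 7 were in leaf alone (46.7%, 6 passed), and 4 of 6 in both fell, or 3 with 1 rising under library-total scaling. Among lectin receptor kinases 13 of 34 fell and 4 rose (relative median −0.30), and among receptor-like proteins 7 of 22 fell and 4 rose (−0.22). With a higher mean of at least 5 RPKM these medians were −1.12 and −0.75. In leaf alone were 9 of 48 lectin receptor kinases (18.8%, 7 passed) and 13 of 40 receptor-like proteins (32.5%, 7 passed), against 10.3% of all genes. In callus alone were 5 of each. Under library-total scaling the splits turned to 14 higher and 5 lower and to 8 higher and 3 lower. Without callus replicate 2 or 3, 2 or 7 lectin receptor kinases rose.

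CRK10 (AT4G23180) was at 331, 326 and 172 RPKM in leaf and 1.25, 1.18 and 1.1 in callus, a log2 change of −6.93 (SE 0.24, limma adjusted p = 4.05e-07). AT3G04210, an NLR-related protein of the TIR-NBS class, went from 221, 154 and 159 RPKM to 1.05, 2.47 and 0.299 (log2 change −6.39, SE 0.34). WRR4, which confers resistance to white rust, was listed in leaf alone at 104, 146 and 118 RPKM, and CRK14 at 70.5, 73.2 and 78.1. Other receptors were uneven within leaf: CRK4 was at 39, 86.9 and 191 RPKM, WAK1 at 59.3, 140 and 181 and RLP23 at 22, 79.2 and 132, each highest in leaf replicate 3, and all 3 were listed in leaf alone. Some members went the other way. AT4G09420 (TIR-NBS) rose from 2.39, 1.37 and 1.72 RPKM to 14, 10.4 and 7.71 (log2 change 2.03, SE 0.22), and AT1G58400, of the coiled-coil class, was listed in callus alone at 14.8, 16.2 and 16.2.

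**Figure D4:**
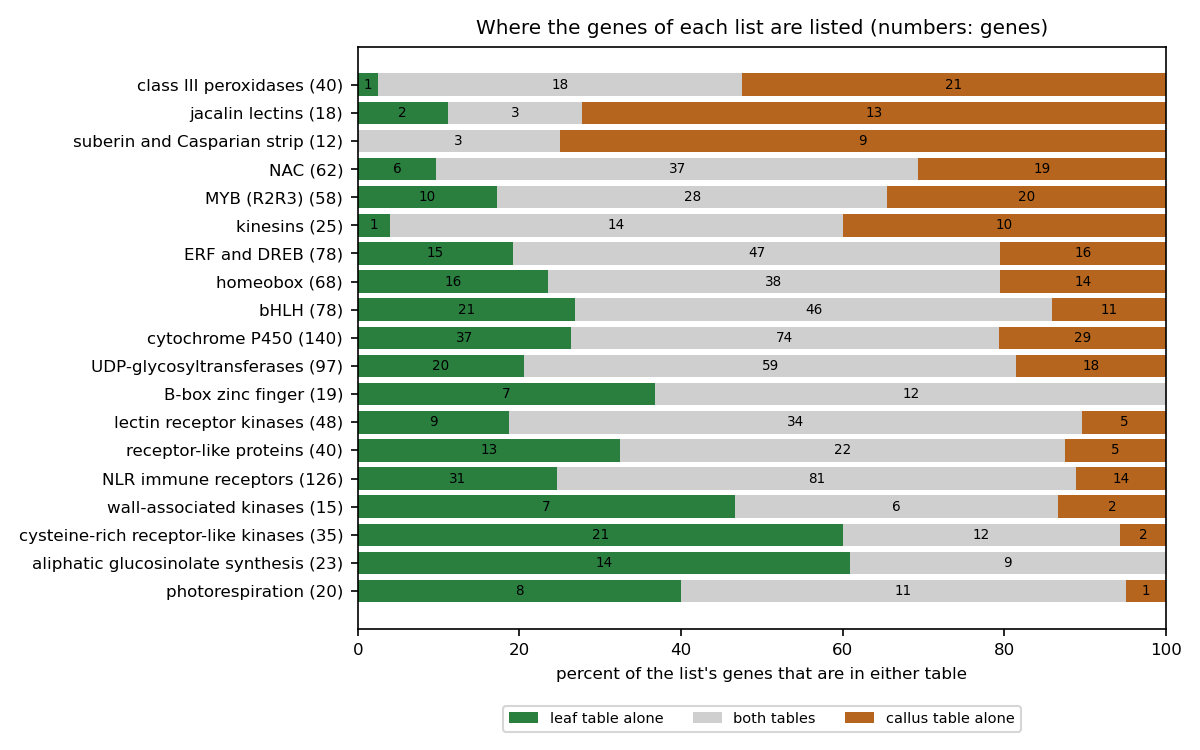
Share of the genes of a list in either table (percent) that are in the leaf table alone, both tables or the callus table alone, with the number of genes on each bar. Aliphatic glucosinolate and cysteine-rich receptor-like kinase genes lie furthest toward leaf (14 of 23 and 21 of 35 in leaf alone), and suberin, jacalin and class III peroxidase genes toward callus (9 of 12, 13 of 18 and 21 of 40 in callus alone).

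Jasmonate, the hormone of wounding and defence against insects, is made from plastid lipids by lipoxygenases and allene oxide cyclases, and JAZ proteins repress its response. Of 26 jasmonate genes in both tables, 19 fell and 3 rose (relative median −2.01, or 14 and 5 under library-total scaling), and 9 were listed in leaf alone (6 passed) with 0 in callus alone. LOX4 (AT1G72520) was at 401, 479 and 427 RPKM in leaf and 3.04, 0.606 and 2.65 in callus, a log2 change of −7.24 (SE 0.32, limma adjusted p = 7.79e-07). LOX3 fell as well, from 294, 356 and 295 RPKM to 4.33, 1.04 and 4.89, and LOX2 was listed in leaf alone at 197, 250 and 472. The 3 that rose were AOC4, from 11.9, 13.2 and 13.6 RPKM to 58.6, 105 and 46.6 (log2 change 2.27, SE 0.29), LOX6, from 12.4, 16.9 and 12.6 to 23.4, 26.5 and 39.5 (1.02, SE 0.25), and MYC3. MYC3, a transcription factor of the jasmonate response singled out after its values were seen, went from 44.2, 52 and 50.4 RPKM to 72, 82.3 and 64.7 (log2 change 0.57, SE 0.18), a call lost without leaf replicate 1 or callus replicate 1 or 2 (0.48 to 0.57). Other cyclases fell or were listed in leaf alone: AOC1 went from 186, 266 and 118 RPKM to 1.24, 0.607 and 1.71 and AOC2 was listed in leaf alone at 335, 452 and 329.

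Of 22 ethylene genes in both tables, 13 rose and 4 fell (relative median 0.66), and 3 of 4 listed in callus alone passed. The receptor ETR2 (AT3G23150) was not listed in leaf and was at 73.1, 68.8 and 76.3 RPKM in callus, 5.20 above the 1 RPKM bound on the log2 scale (SE 0.14, limma adjusted p = 1.37e-05). ERS1, another ethylene receptor, went from 18.4, 10.5 and 24.3 RPKM to 81.1, 62.5 and 84.5, with no overlap. Of the enzymes that form the precursor ACC, ACS6 went from 323, 386 and 349 RPKM to 6.62, 2.49 and 9.64 (−5.75, SE 0.37) and ACS2 from 1.35, 1.96 and 3.74 to 39.7, 7.95 and 45.8 (3.00, SE 0.66). Of the enzymes that turn ACC into ethylene, ACO4 went from 206, 161 and 338 RPKM to 35.5, 29.3 and 80.9 (−2.32, SE 0.43), while ACO1 (AT2G19590) was listed in callus alone at 58.8, 83.5 and 52.1.

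Other hormone lists were mixed. Of all genes 33.6% rose and 31.8% fell. Of 31 abscisic acid genes 8 rose (25.8%) and 14 fell (45.2%). Of 18 gibberellin genes 7 rose and 7 fell (38.9% each), near the shares of all genes. Of 18 brassinosteroid genes 4 rose and 4 fell (22.2% each), fewer than among all genes. The relative median of the brassinosteroid list, −0.03, turned to 0.19 under quantile normalization. Under library-total scaling 17 abscisic acid genes rose and 7 fell, 11 gibberellin genes rose and 4 fell, and 12 brassinosteroid genes rose and 2 fell. The brassinosteroid receptor BRL1 (AT1G55610), a homologue of BRI1, went from 0.984, 0.947 and 2.03 RPKM to 51.3, 59.6 and 53.6, a log2 change of 4.62 (SE 0.19), and BKI1, an inhibitor of BRI1, from 26.7, 21.8 and 16.5 to 1.26, 1.67 and 1.29 (−3.21, SE 0.19). The gibberellin receptor GID1B rose from 9.41, 12.5 and 7.93 RPKM to 47.5, 64.8 and 35.4 (2.18, SE 0.27), and RGA, a DELLA repressor of the same pathway, fell from 74.7, 77.8 and 54.3 to 21, 17.2 and 10.9 (−2.04, SE 0.25). NCED3, the stress-induced enzyme of abscisic acid synthesis, was listed in leaf alone at 115, 95.7 and 34 RPKM, and its paralog NCED5 in callus alone at 4.67, 12.5 and 3.28, a call lost without callus replicate 1 or 2.

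The aquaporins, water channels of the plasma membrane (PIP) and vacuole (TIP), were among the lowest families outside the plastid. Of 10 PIP genes 8 fell and 1 rose (relative median −3.21), and both TIP genes in the 2 tables fell. PIP2;1 (AT3G53420) was at 721, 1294 and 264 RPKM in leaf and 6.44, 4.59 and 5.36 in callus, a log2 change of −6.61 (SE 0.61, limma adjusted p = 3.46e-05). TIP1;1 was at 409, 882 and 271 RPKM in leaf and 0.927, 1.78 and 0.318 in callus (−7.91, SE 0.48). In both, leaf replicate 2 was the highest leaf library. PIP2;5 rose from 3.57, 11.3 and 2.03 RPKM to 16.5, 30.6 and 34.3 (2.28, SE 0.52). Of 5 SWEET sugar exporters in both tables, 4 fell (2 under library-total scaling, with 1 rising), and SWEET11, which loads sucrose for the phloem, was listed in leaf alone at 201, 187 and 145 RPKM.

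The cell wall and surface changed by family. All 5 primary wall cellulose synthases in both tables fell (relative median −1.53): CESA1, CESA3 and CESA6, of the growing wall, had log2 changes of −0.64, −0.98 and −1.47, and CESA2 and CESA5 of −2.77 and −2.82. Under library-total scaling 3 of the 5 fell, and under fixed-sum scaling the values of CESA1 and CESA3 turned to 0.49 and 0.14. CESA5 was at 102, 124 and 35.4 RPKM in leaf and 10.4, 9.44 and 10.3 in callus. The expansin EXPA4, which loosens the wall, rose from 25.2, 18.7 and 15 RPKM to 262, 282 and 281 (3.77, SE 0.26), while EXPA5 was listed in leaf alone at 52.2, 41.1 and 18.4. Among arabinogalactan proteins of the wall 11 of 30 rose and 17 fell (11 and 10 under library-total scaling), from AGP31, with 7.87, 7.89 and 3.55 RPKM in leaf against 202, 170 and 141 in callus, to FLA9, with 183, 124 and 101 against 5.5, 5.01 and 4.38.

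More cutin and wax genes of the leaf surface fell than rose on the deposited scale, and the suberin and Casparian strip genes of root barriers found in either table were mostly in callus alone. Of 22 cutin and wax genes 12 fell and 4 rose (relative median −0.70, or 6 and 7 under library-total scaling). CYP86A2, which makes cutin monomers, went from 177, 215 and 87.1 RPKM to 3.7, 6.01 and 2.65 (log2 change −4.93, SE 0.42), with 909 bases that overlap another gene. Of 12 suberin and Casparian strip genes in either table, 9 were in callus alone (75%, 6 passed) and 0 in leaf alone. MYB92, a regulator of suberin, was at 30.2, 11.8 and 7.54 RPKM and the fatty acid reductase FAR1, which makes its fatty alcohols, at 10.1, 18.6 and 7.59. Of their bases 155 in MYB92 and 1310 in FAR1 overlap another gene. In neither table were 17 of the 29 annotated genes, CASP1 among them. MYB36, the endodermis regulator that activates CASP genes, was listed in callus at 12.2, 6.87 and 1.88 RPKM, a call also lost without callus replicate 1 or 2.

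Class III peroxidases, secreted enzymes that stiffen or loosen walls, were listed in callus more often than in leaf. Of 40 in either table, 21 were in callus alone (52.5%, 15 passed) and 1 in leaf alone. Of 18 in both 6 rose (33.3%) and 5 fell (27.8%), near the 33.6% and 31.8% of all genes. Under library-total scaling 8 rose and 4 fell. The relative median of these 18 was −0.29 and turned to 0.41 under quantile normalization. Prx37 was listed in callus alone at 142, 154 and 178 RPKM, and PA2 rose from 1.1, 1.24 and 2.57 to 57.9, 44.2 and 84.6 (log2 change 4.58, SE 0.37), while AT5G64120 fell from 62, 66 and 111 to 5.05, 1.42 and 1.74 (−4.51, SE 0.39). Jacalin lectins, which bind sugars, leaned the same way, with 13 of 18 in callus alone (72.2%, against 10.3% of all genes). Only 6 of these 13 passed, where 58.2% of all genes listed in callus alone did. JAL33 was listed in callus alone at 382, 474 and 549 RPKM, and JAL34 rose from 1.33, 2.05 and 13.8 to 218, 532 and 436. In lignin synthesis 6 of 18 genes rose and 6 fell (33.3% each), near the 33.6% and 31.8% of all genes. Under library-total scaling 10 rose and 3 fell, where 9085 and 2554 of all 14780 genes did. The cinnamyl alcohol dehydrogenase CAD5 rose (12.9, 21.1 and 21.7 RPKM in leaf, 147, 97.1 and 192 in callus). Its relative CAD9 fell (58.8, 95.4 and 30.8 in leaf, 3.94, 5.32 and 0.451 in callus).

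Transcription factor families differed in their balance. NAC factors leaned toward callus, with 20 of 37 rising (54.1%, against 33.6% of all genes) and 5 falling (13.5%, against 31.8%). Their relative median was 0.78, and under library-total scaling 28 rose and 3 fell. In callus alone were 19 of 62 (30.6%, 11 passed), against 10.3% of all genes. This share was not particular to NAC, since 20 of 58 R2R3 MYB factors were in callus alone (34.5%, 12 passed). NAC084 was listed in callus alone at 113, 142 and 72 RPKM, CUC2, a boundary gene of the shoot apex, at 15.5, 19.3 and 9.6, and NAC6, a regulator of leaf senescence, rose from 0.812, 1.65 and 1.31 to 17.4, 20.6 and 22.7 (log2 change 3.24, SE 0.21). NAC036 was listed in leaf alone at 249, 278 and 206. B-box factors, many of which act in light signalling, leaned toward leaf, with 7 of 12 falling (58.3%, against 31.8% of all genes) and 0 rising. Without leaf replicate 3 and under library-total scaling 3 rose. In leaf alone were 7 of 19 (36.8%, 6 passed), against 10.3% of all genes. BBX14 was listed in leaf alone at 247, 227 and 170 RPKM, and BBX15 went from 196, 239 and 108 to 2.91, 0.308 and 0.629 (−6.41, SE 0.49).

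WRKY and ERF factors held large changes in both directions. Of 39 WRKY factors 15 rose (38.5%) and 11 fell (28.2%), near the 33.6% and 31.8% of all genes. Under library-total scaling 24 rose and 8 fell. At least 2-fold changes were 12 rises and 10 falls of the 39, where 14.9% of all genes rose and 22.2% fell that far. WRKY23 (AT2G47260), known from root and embryo development, went from 1.75, 2.01 and 1.44 RPKM to 143, 167 and 114, a log2 change of 5.69 (SE 0.17, limma adjusted p = 2.88e-07). WRKY40, a repressor of defence genes, went from 444, 458 and 637 RPKM to 11.8, 11.6 and 11.9 (−5.31, SE 0.19), and WRKY53, of leaf senescence, from 117, 137 and 147 to 3.99, 1.19 and 1.37 (−5.50, SE 0.37). WRKY75 was uneven in leaf, at 0.284, 1.54 and 12.9 RPKM, and was at 57, 47 and 78.8 in callus. Of 47 ERF and DREB factors 14 rose (29.8%) and 23 fell (48.9%), with a relative median of −0.72. Under library-total scaling 19 rose and 16 fell. In callus alone 15 of 16 passed, and in leaf alone 13 of 15. RAP2.3 went from 97, 128 and 107 RPKM to 1144, 1087 and 807 (3.18, SE 0.22), and ORA47, a wound-induced activator of jasmonate synthesis, from 370, 372 and 241 to 2.26, 0.955 and 0.554 (−7.23, SE 0.39). DDF1 and CBF2, DREB factors of stress and cold, were listed in leaf alone at 169, 211 and 231 and at 56.8, 65.9 and 75.4 RPKM.

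Members of 1 family often moved in opposite directions. In 31 of 36 families examined at least 1 member rose and another fell among called genes listed in both tissues with at least a 2-fold change, groups that did not overlap and a higher mean of at least 5 RPKM. With 14.9% of all genes higher and 22.2% lower by at least 2-fold, opposite members are frequent in large families, and the pairs are a description. The widest pair was in the lipid transfer proteins, secreted carriers of lipids: LTP2 went from 1.91, 3.26 and 3.67 RPKM to 800, 1103 and 1347 (log2 change 8.10, SE 0.29) and LTP5 from 555, 446 and 358 to 5.03, 0.286 and 0.332 (−7.68, SE 0.57). Among glutathione S-transferases, which conjugate toxins, GSTU24 went from 0.915, 2.06 and 1.55 RPKM to 51.2, 46.6 and 114 (4.74, SE 0.39) and ERD9 from 113, 291 and 29.7 to 1.15, 0.325 and 2.9 (−5.50, SE 0.84). Among cytochromes P450 CYP72A7 went from 0.915, 1.24 and 1 RPKM to 58, 59.7 and 84.1 (5.04, SE 0.16), while CYP79B3 fell and CYP83A1 was listed in leaf alone, as described above. Of the tubulins, which build microtubules, TUB3 rose from 59.3, 55.4 and 44.6 RPKM to 199, 255 and 175 (1.95, SE 0.19) and TUB8 fell from 22.2, 27.6 and 17 to 3.4, 2.92 and 2.53 (−2.54, SE 0.19). Metallothioneins, small metal-binding proteins, had no such pair: MT3 went from 1186, 1230 and 1249 RPKM to 0.618, 1.69 and 1.16 (−9.18, SE 0.39), 2 of 5 members fell and 0 rose, or 2 and 2 under library-total scaling.

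**Figure D5:**
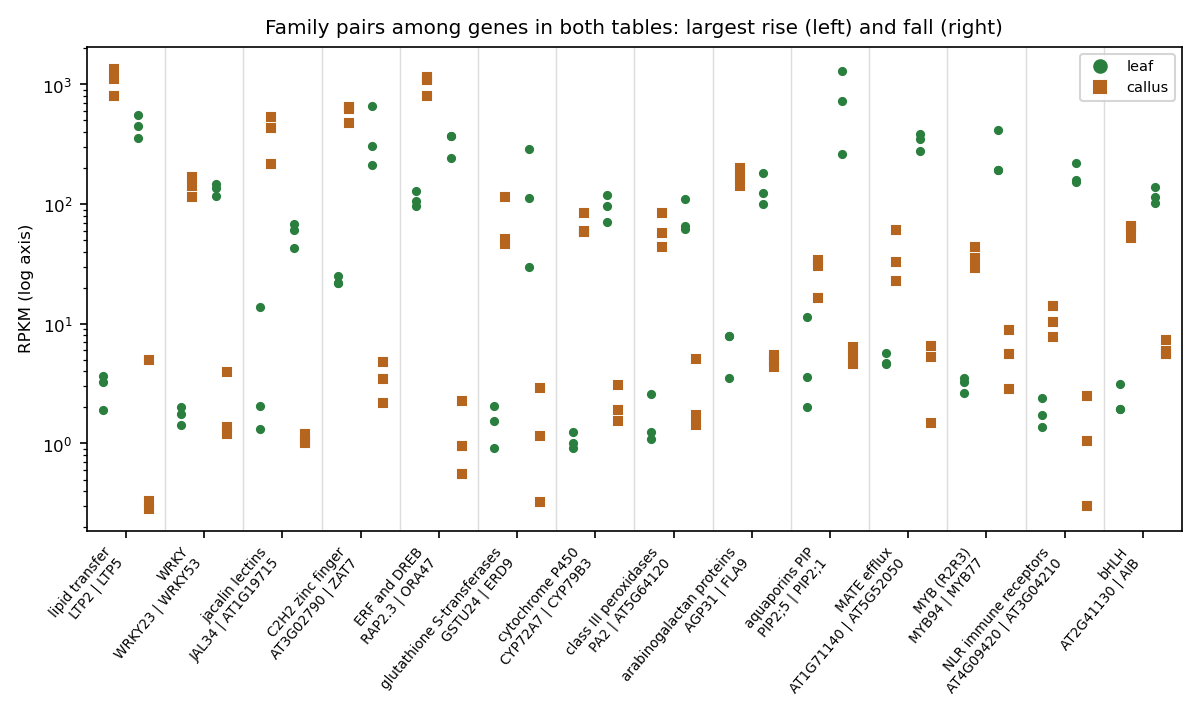
Levels (RPKM, log axis) in the 3 leaf libraries (circles) and 3 callus libraries (squares) of the member that rose most (left in each column) and the member that fell most (right) in the 14 families with the widest pairs, among genes listed in both tissues (members listed in 1 tissue, such as JAL33, Prx37 and CYP83A1, are not shown). In every column the squares lie above the circles on the left and below them on the right, which the choice of pairs fixes, and the leaf libraries of JAL34 and ERD9 lie furthest apart.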

How the data were processed

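Polyadenylated RNA was sequenced from 3 leaf, 3 wild-type callus and 3 emf2 callus libraries with a TruSeq RNA kit that does not mark strand, per the labels' protocols, so reads of overlapping genes cannot be told apart. The deposited values are RPKM per gene, and each table keeps genes with a group mean above 1 RPKM, per the file headers. FastQC, cutadapt, TopHat and TAIR10 are named without versions, per the submitters' processing notes. The counter and the scaling are not given in the sources used here. RPKM summed to 746206 to 887210 per leaf library and 358768 to 398251 per callus library, so scaling was varied.

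Whole reads were recovered from the values for 18861 of 18861 genes (100.00%, relative tolerance 3e-14) and used for depth, library totals and 1 alternative. Values as log2(RPKM + 1) were fitted with limma 3.58.1 in R 4.3.3, with all 9 libraries in 1 fit and a variance trend. Two-sided p-values were Benjamini-Hochberg adjusted over 14780 genes in both tables, and over the genes in 1 table together. A gene in 1 table was tested against 1 RPKM on the same scale. The listing used these same values, so the direction of that test was largely fixed in advance. Tested on simulated data with 200 changed genes among 14780, the fit recovered 54% of 2-fold and 91% of 4-fold changes. The simulated noise was normal with the fitted spread, and 65.4% of the real genes were called. The recovered shares therefore describe that setting and not the recovery in this comparison. A p-value measures the spread between these libraries.

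Lists were built from annotated names, symbols and functions, with 18843 of 18861 genes matched to the RefSeq annotation of TAIR10.1. The members and lists were chosen with earlier results of these data known, and some members were dropped on function after values were seen. Named genes are, per list, up to 3 rises and 3 falls with the largest called change of at least 2-fold, no overlap between tissues and a higher mean of at least 5 RPKM. Up to 2 genes per tissue listed in 1 table were added by level, and any member of lists of at most 20. MYB36 was named as a marker. Of 152 named genes 41 overlap another gene, and the overlap is given above for only some of them. Among the rest are JAL34 (631 bases), EMB3137 (416), WRKY53 (341), BBX14 (329) and MT3 (302). The alternatives were other pseudocounts, scalings, filters, fits and bounds, each replicate left out, and the replicate number as a block. Library-total scaling and limma's voom on recovered reads were chosen after seeing the data. Python 3.11.15, numpy 2.4.6, pandas 2.3.3 and matplotlib 3.10.9 were used.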

Additional observations from a re-analysis of the deposited data

How the results depend on the processing

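Scaling moved the counts of genes listed in both tissues. Under fixed-sum scaling 9828 genes rose and 2261 fell (7386 and 1708 at least 2-fold), and under library-total scaling 9085 and 2554 (6317 and 1937). List members that rose went from 792 to 1364 and 1270 under these scalings, and those that fell from 724 to 397 and 436. Among genes listed in 1 tissue, with a bound of 2 RPKM 648 genes in callus alone passed, against 1119. Leaving out 1 library gave 4342 to 5273 genes that rose and 4263 to 4924 that fell.

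Relative to all genes, 17 of 80 list medians changed sign in some alternative, and 0 of the 38 that lay over 0.5 from all genes did. Of the named genes, 6 lost their call in some alternative and 2 reversed: CESA1 was at 0.07 under quantile normalization, 0.49 under fixed-sum scaling and 0.27 under library-total scaling, and CESA3 at 0.14 under fixed-sum scaling. The cause was not tested. With the replicate block 5020 genes rose and 4770 fell, and CYP79B2 passed, as it did without callus replicate 3. Deviations of same-numbered leaf and callus libraries correlated at −0.03, −0.032 and 0.11, within the −0.226 to 0.239 of the other pairings. With 3 libraries per group these values cannot decide whether same-numbered libraries share a preparation.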
